A study of Mus musculus with 6 samples.

Results

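The mouse Schlafen family was followed in T helper 17 (Th17) cells, interleukin-17-producing CD4 T cells, that had been differentiated in culture. Its members were taken by symbol from a table of counts per gene: Slfn1, Slfn2, Slfn3, Slfn4, Slfn5, Slfn8 and Slfn9, which are 7 of the 31017 genes in the table. All 7 had enough counts to be tested. RNA was sequenced from 3 control libraries, labelled wild type, and 3 libraries labelled knockout (KO) and described as deficient in RTF1, a partner of the PAF1 complex that travels with RNA polymerase II and is needed for ubiquitination of histone H2B. Both groups carry the same cell type label, and no treatment is listed. Strain, age, the way in which Rtf1 was deleted and the number of animals are not given in the labels, so the p-values below measure the spread between these libraries, which may be technical in part.

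Schlafen proteins share a core domain with divergent nucleic acid binding features and fall into 3 size classes. The short class (Slfn1 and Slfn2) holds little more than the core, the intermediate class (Slfn3 and Slfn4) adds a linker domain, and the long class (Slfn5, Slfn8 and Slfn9) adds a region that resembles helicases. In T cells the family is known for its link to quiescence: forced expression of Slfn1 blocks the growth of thymocytes, and loss of Slfn2 function leaves T cells unable to stay at rest and poorly able to survive activation. Slfn2 has also been shown to shield transfer RNAs from cleavage by angiogenin. Many family members are induced by type I interferon, and Slfn4 is best known from macrophages and neutrophils.

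All 7 genes lie in 1 cluster on chromosome 11, from 82951349 to 83215154 in GRCm38 (263.8 kb, GENCODE release M21). From the low end, the order is Slfn5, Slfn9, Slfn8, Slfn2, Slfn1, Slfn4 and Slfn3, with Slfn8 and Slfn9 on the minus strand and the other 5 on the plus strand. The longest annotated coding sequence ran to 337 codons for Slfn1 and 378 for Slfn2, 640 for Slfn3 and 602 for Slfn4, and 884 for Slfn5 and 910 for each of Slfn8 and Slfn9. In a pairwise alignment the coding sequences of Slfn8 and Slfn9 were 92.7% identical and those of Slfn3 and Slfn4 92.3% identical. Slfn1 and Slfn2 were 71.3% identical, and Slfn5 was 63.4% identical to Slfn8.

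The stretches of promoter printed here are shown because the family is known for its response to interferon and so that the promoters of the size classes can be compared. Promoters of 300 bases (250 before to 50 after the start site) came from RefSeq on GRCm38.p6, which had an entry for each of the 7 genes. A pair of GAAA repeats with 2 bases between them, the core of the interferon-stimulated response element, was searched on both strands (TTTC repeats on the opposite one) and is in capitals in the promoters of the 3 long genes, each printed 5′ to 3′ on its gene's strand.
Slfn5: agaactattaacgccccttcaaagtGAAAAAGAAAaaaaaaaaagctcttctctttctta
Slfn8: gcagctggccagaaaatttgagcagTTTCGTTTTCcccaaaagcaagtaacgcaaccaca
Slfn9: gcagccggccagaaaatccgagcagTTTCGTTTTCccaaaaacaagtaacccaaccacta
These stretches lie at chr11:82951922-82951981 on the plus strand for Slfn5, and on the minus strand at chr11:83020824-83020883 for Slfn8 and chr11:82991841-82991900 for Slfn9. The match begins 155, 48 and 45 bases before the start site of Slfn5, Slfn8 and Slfn9. RefSeq lists another start site of Slfn8, from which the same match begins at -136. In GENCODE, the Slfn5 stretch falls in an intron of a Slfn5 transcript that starts farther upstream and in an intron of the antisense gene Slfn5os, and the other stretches lie outside any annotated gene. The motif was present in 3.44% of 32851 promoters of the same length. The promoters of Slfn8 and Slfn9 were 84.9% identical over 292 aligned bases, against 51.9% to 67.3% for the other pairs.

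The promoters of the short and intermediate genes held no such pair of repeats. The longest stretch that all 4 shared had 9 bases, ACTTCCTGG, and is in capitals here. It was chosen from these promoters, so its presence in them is no finding.
Slfn1: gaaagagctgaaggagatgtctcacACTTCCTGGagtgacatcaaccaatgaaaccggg
Slfn2: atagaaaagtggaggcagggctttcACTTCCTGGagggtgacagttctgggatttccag
Slfn3: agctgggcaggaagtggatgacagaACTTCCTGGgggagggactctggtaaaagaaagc
Slfn4: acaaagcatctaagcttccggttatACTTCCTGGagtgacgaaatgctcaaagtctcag
All 4 are on the plus strand and outside annotated genes, at chr11:83116721-83116779 for Slfn1, chr11:83065032-83065090 for Slfn2, chr11:83191263-83191321 for Slfn3 and chr11:83175088-83175146 for Slfn4. This stretch, searched on both strands, was in 0.843% of all promoters and in 4 of the 7 Schlafen promoters. Its reverse complement contains GGAA, the core recognised by ETS family factors. TTCNNNGAA, the gamma-activated sequence, was in 8.3% of all promoters and in 0 of the 7, which says only that these letters are not in these windows. A match to any of these motifs describes the letters and shows no binding.

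Total counts ran from 16489813 (control replicate 1) to 51271226 (control replicate 2), and the 7 genes together took between 3209 and 12605 counts per library. No molecular identifiers are mentioned, and counting error is only a part of the error of each value. Rtf1, the targeted gene, had 94, 91.2 and 88.3 CPM (counts per 1000000, with libraries scaled by size and TMM factors) in control replicates 1, 2 and 3, and 45.3, 30.4 and 26.2 in the KO libraries. Each KO library was below each control library, with some Rtf1 RNA left (log2 fold change -1.42, SE 0.191, adjusted p = 0.000755, edgeR quasi-likelihood test with Benjamini-Hochberg adjustment). By their sum over 4 Y-linked genes, the replicate 3 libraries of both groups (11376 counts in control and 5147 in KO) stood apart from the other 4 (1 to 3 counts). For that reason each Schlafen gene is also given from replicates 1 and 2 alone, a comparison chosen with earlier results known.

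Of the 7 Schlafen genes, 4 were higher in the KO libraries (Slfn1, Slfn2, Slfn5 and Slfn8), 1 was lower (Slfn9) and 2 did not pass the test (Slfn3 and Slfn4) at an adjusted p of 0.05. Over all 14268 genes tested, 46.1% were called, 23.2% higher and 22.9% lower, so a call by itself was common in this comparison. Groups did not overlap for 6 of the 7 genes, and for 57.9% of all tested genes. The median log2 fold change of the 7 was 0.69, against 0.013 over all tested genes. These were RNA levels of whole cultures, in which fewer cells of a type and less RNA per cell cannot be told apart.

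**Figure D1:**
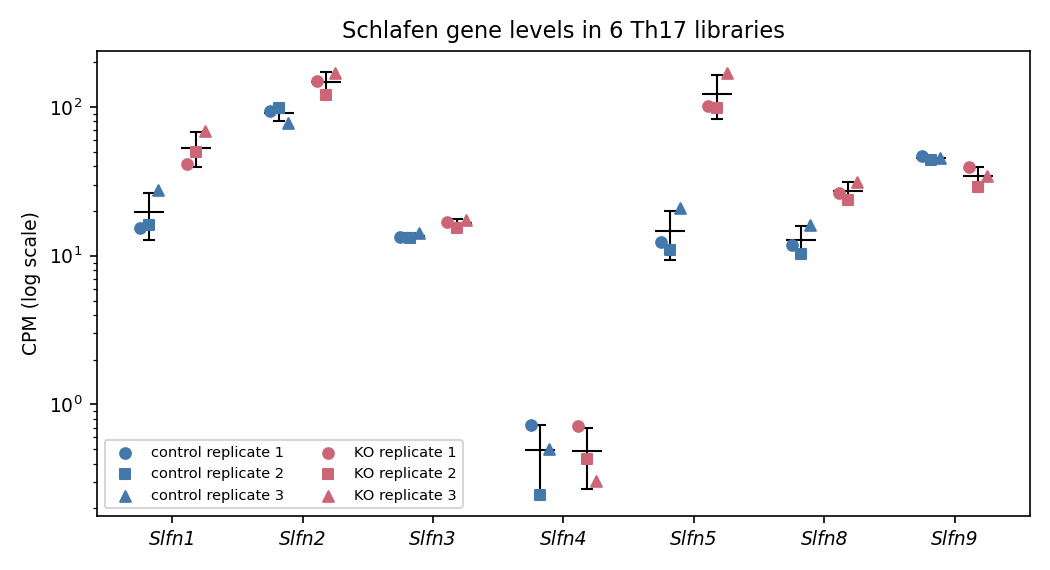
Normalised level in CPM (log axis) of each Schlafen gene in the 3 control and 3 KO libraries, with 1 point per library, a different marker for each replicate number and a bar at the mean of each group with whiskers of 1 SD. The KO points of Slfn1, Slfn2, Slfn3, Slfn5 and Slfn8 sit above every control point, those of Slfn9 sit below, and those of Slfn4 overlap with control.

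Slfn1, the short member that can block T cell growth, had 15.4, 16 and 27.6 CPM in control replicates 1 to 3 and 41.6, 49.5 and 69.1 CPM in KO replicates 1 to 3. Every KO library was above every control library, and replicate 3 was the highest of its group on both sides. The mean rose from 19.7 ± 6.86 to 53.4 ± 14.2 CPM (SD, n = 3), 2.7-fold, with a log2 fold change of 1.43 (SE 0.265, 95% interval 0.83 to 2.04, adjusted p = 0.00298, edgeR). Replicates 1 and 2 alone gave 1.53 (adjusted p = 6e-05). Of all 50-base stretches of its transcripts, 0.606% also occurred in another gene, the smallest share in the family.

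Slfn2, the member needed for T cell quiescence, was measured at 94.7, 98.6 and 78.6 CPM in control and at 150, 120 and 170 CPM in KO replicates 1 to 3. The groups did not overlap, replicate 3 was the lowest control library and the highest KO library, and KO replicate 2 was closest to the controls. Slfn2 rose 1.62-fold, from 90.6 ± 10.6 to 147 ± 25.2 CPM (log2 fold change 0.69, SE 0.153, 95% interval 0.35 to 1.04, adjusted p = 0.00643, edgeR). Its difference between libraries of equal number was 0.67, 0.28 and 1.11 on the log2 scale for replicates 1, 2 and 3, a wider scatter than the 1.43, 1.63 and 1.33 of Slfn1. With replicates 1 and 2 alone the log2 fold change was 0.48 (adjusted p = 0.0205).

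Slfn3, an intermediate member first described in lymphocytes and also studied in gut epithelium, had 13.4, 13.1 and 14.2 CPM in control and 16.8, 15.3 and 17.5 CPM in KO replicates 1 to 3. The KO values lay above the control values without overlap, but by a small margin (13.6 ± 0.57 against 16.5 ± 1.11 CPM). The log2 fold change of 0.29 did not pass the test (SE 0.141, 95% interval -0.034 to 0.61, adjusted p = 0.126, edgeR), and the interval takes in both no difference and a rise of 0.61. Replicates 1 and 2 alone gave 0.28 (adjusted p = 0.233).

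Slfn4, the intermediate member associated with myeloid cells, was barely detected. It had 12, 12 and 21 counts in control and 19, 16 and 6 counts in KO replicates 1 to 3, or 0.492 ± 0.241 against 0.485 ± 0.214 CPM. The libraries of the groups were interleaved. The log2 fold change of 0.077 had a 95% interval from -1.12 to 1.28 (adjusted p = 0.916, edgeR), which takes in a change by 1 log2 unit in either direction. Replicates 1 and 2 alone gave 0.37 (adjusted p = 0.683). Slfn3 and Slfn4 share sequence: 7.39% of the 50-base stretches of Slfn3 occur in Slfn4, so their split is uncertain. Slfn3 had 221 to 633 counts per library, and Slfn2, in which 1.72% of the stretches of Slfn4 occur, had 1557 to 4779. A small misassigned part of the reads of either gene would weigh heavily on the few counts of Slfn4. The summed counts of Slfn3 and Slfn4, which leave out Slfn2, gave a log2 fold change of 0.28 (adjusted p = 0.136, edgeR).

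Slfn5, a nuclear long member known as an interferon-induced regulator of transcription, showed the largest fold change in the family. It had 12.4, 10.9 and 20.8 CPM in control and 102, 98.9 and 170 CPM in KO replicates 1 to 3. The lowest KO library was several times above the highest control library. The mean rose 8.35-fold, from 14.7 ± 5.32 to 123 ± 40.3 CPM, with a log2 fold change of 3.06 (SE 0.301, 95% interval 2.38 to 3.74, adjusted p = 0.000227, edgeR).

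Only 1.88% of all tested genes had a larger log2 fold change than Slfn5, and 8.11% of the genes called higher. Libraries of equal number differed by 3.03, 3.18 and 3.03, a narrow range, and replicates 1 and 2 alone gave 3.11 (adjusted p = 4.9e-07, edgeR). The antisense gene Slfn5os covers 8.84% of the exonic bases of Slfn5, and the strand setting of the counting is not given in the sources used here, so reads in the overlap cannot be assigned to a strand. Slfn5os itself was listed with 0 or 1 count in each library.

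Slfn8 and Slfn9, long members that are near copies of each other, differed between the groups in opposite directions. Slfn8 had 11.8, 10.3 and 16.2 CPM in control and 26.6, 23.8 and 31.4 CPM in KO replicates 1 to 3. All KO libraries were above all control libraries. Slfn8 rose 2.13-fold, from 12.8 ± 3.1 to 27.3 ± 3.81 CPM (log2 fold change 1.09, SE 0.2, 95% interval 0.64 to 1.54, adjusted p = 0.00283, edgeR), and by 1.20 in replicates 1 and 2 alone (adjusted p = 0.000438).

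Slfn9 had 46.6, 43.9 and 45.3 CPM in control, a tight group, and 39.5, 29.1 and 34.5 CPM in KO replicates 1 to 3. Every KO library was below every control library. Slfn9 was 1.32-fold lower in KO, at 34.3 ± 5.22 against 45.3 ± 1.39 CPM (log2 fold change -0.40, SE 0.139, 95% interval -0.71 to -0.085, adjusted p = 0.0417, edgeR). This call was near the threshold: replicates 1 and 2 alone gave -0.40 with an adjusted p of 0.0725, and leaving out control replicate 1 or 2 or KO replicate 2 or 3 gave adjusted p-values of 0.0896, 0.07, 0.173 and 0.0977.

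The ratio of Slfn8 counts to Slfn9 counts, a quantity chosen after the values had been seen, was 0.253, 0.234 and 0.358 in control and 0.673, 0.821 and 0.91 in KO replicates 1 to 3. The groups did not overlap in this ratio, which averaged 0.282 ± 0.0668 in control and 0.801 ± 0.12 in KO. The sum of both genes was 58 ± 3.74 CPM in control and 61.6 ± 7.53 CPM in KO, with overlapping libraries, and as 1 feature they gave a log2 fold change of 0.085 (adjusted p = 0.607, edgeR). Of the 50-base stretches of Slfn8, 9.3% occur in Slfn9 and 10.1% in the pseudogene Slfn10-ps, which is not among the genes of the deposited counts. For Slfn9 these shares were 6.52% with Slfn8 and 8.1% with Slfn10-ps, and how reads from shared stretches were assigned is not given in the sources used here. The opposite directions therefore rest on reads from the stretches in which the copies differ and on an assignment of the rest that could not be inspected.

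**Figure D2:**
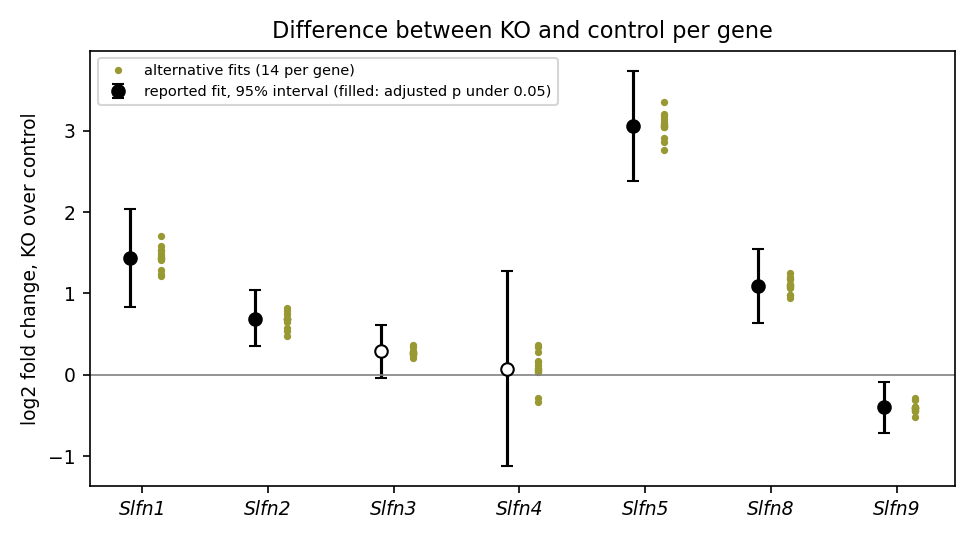
Log2 fold change of each Schlafen gene, KO over control, with the 95% interval of the reported fit (black; filled where the adjusted p was under 0.05) and, beside it, the values under 14 alternative fits; fits with near-copies summed are not drawn. Slfn5 sits near 3.06, Slfn1 and Slfn8 above 1, Slfn2 at 0.69 and Slfn9 at -0.40, and Slfn3 and Slfn4 have intervals that include 0.

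On a scale per length (CPM divided by kilobases of annotated exon, RPKM), the family in control cells was led by Slfn2 at 54.5 ± 6.36 RPKM. Slfn1 followed at 10.6 ± 3.68 and Slfn9 at 7.59 ± 0.232, then Slfn3 at 3.98 ± 0.167, Slfn8 at 3.12 ± 0.758, Slfn5 at 2.32 ± 0.841 and Slfn4 at 0.124 ± 0.0608 RPKM. This order held within each of the 3 control libraries, although over the libraries the ranges of Slfn3 and Slfn8, and of Slfn8 and Slfn5, overlapped. In KO cells Slfn2 (88.1 ± 15.2 RPKM) and Slfn1 (28.7 ± 7.6) kept the first and second ranks, and Slfn5, the sixth of the order in control cells, was the third at 19.5 ± 6.37 RPKM. Slfn8 (6.66 ± 0.93), Slfn9 (5.76 ± 0.874) and Slfn3 (4.85 ± 0.324) came next, and Slfn4 stayed last at 0.122 ± 0.054 RPKM. In KO cells the ranges of Slfn1 and Slfn5, of Slfn8 and Slfn9, and of Slfn9 and Slfn3 overlapped.

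The summed level of the 7 genes was 82, 83.3 and 81.2 RPKM in control and 147, 129 and 185 RPKM in KO replicates 1 to 3. The control libraries were close together and every KO library was above them (82.2 ± 1.08 against 154 ± 28.2 RPKM). Within that sum the share of Slfn5 was 2.39%, 2.07% and 4.05% in control and 10.9%, 12.1% and 14.6% in KO replicates 1 to 3, without overlap. The share of Slfn9 was 9.24% ± 0.372 in control and 3.8% ± 0.686 in KO, and that of Slfn3 was 4.84% ± 0.264 and 3.2% ± 0.372, both without overlap. Slfn2 made up 66.2% ± 7.02 of the sum in control and 57.4% ± 3.53 in KO, Slfn1 12.9% ± 4.63 and 18.6% ± 2.97, and for both the libraries of the groups overlapped. Shares add up to a whole, so a share can be lower while the level of that gene is not, as for Slfn3.

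**Figure D3:**
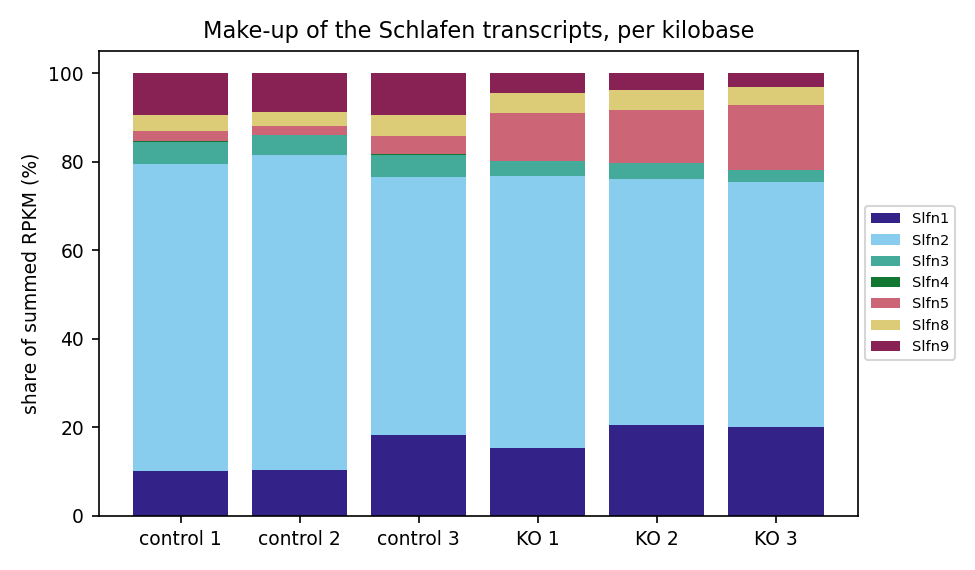
Share of each Schlafen gene in the summed RPKM of the 7 genes (%), as 1 stacked bar per library. Slfn2 is the largest segment in every library, and the Slfn5 segment is at most 4.05% in control and at least 10.9% in KO libraries.

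Libraries with the number 3 were the highest of their group in both control and KO for Slfn1, Slfn3, Slfn5 and Slfn8. For Slfn2 control replicate 3 was the lowest control and KO replicate 3 the highest KO library, and Slfn9 had its highest value in replicate 1 of each group. Several interferon-induced genes were also highest in replicate 3. Ifit1, which encodes a sensor of viral RNA, had 2.49, 2.35 and 18.1 CPM in control and 54.8, 76 and 122 CPM in KO replicates 1 to 3. The part of the replicate 3 libraries in the Schlafen values was not tested beyond leaving each of them out and using replicates 1 and 2 alone.

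Of the 10 nearest protein-coding genes around the cluster, 5 on each side and leaving out Schlafen genes, 6 were tested. Of these 6, 0 were higher, 1 was lower and 5 did not pass the test (16.7% called, against 46.1% over all tested genes). Their median log2 fold change was -0.19, and whether they differ from the family was not tested. Rad51d, a gene of homologous recombination 60.7 kb from the cluster, was lower in KO (33.5 ± 3.69 against 25.5 ± 0.703 CPM, log2 fold change -0.40, adjusted p = 0.0338, edgeR). That call was lost without KO replicate 1, 2 or 3 (adjusted p = 0.0652, 0.124 and 0.0849), with replicates 1 and 2 alone (-0.31, adjusted p = 0.117), with libraries scaled by size alone (-0.31, adjusted p = 0.0833) and with no filter on low counts (adjusted p = 0.0571). Nle1, a ribosome assembly gene, was not called (-0.41, adjusted p = 0.112, edgeR). It passed with the replicate number as a block (-0.41, adjusted p = 0.0376) and without control replicate 3 (-0.61, adjusted p = 0.016). On the other side, Ap2b1, an adaptor subunit of clathrin coats, had 249 ± 5.31 and 273 ± 9.31 CPM (0.13, adjusted p = 0.329, edgeR). Inside the cluster, Slfn4 and Slfn3 at one end did not pass the test, while Slfn5 at the other end had the largest fold change and its neighbour Slfn9 was lower. Other Schlafen loci with listed counts were close to silent: Slfn14 had at most 7 counts and Slfnl1 at most 7 in any library, and neither was tested.

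**Figure D4:**
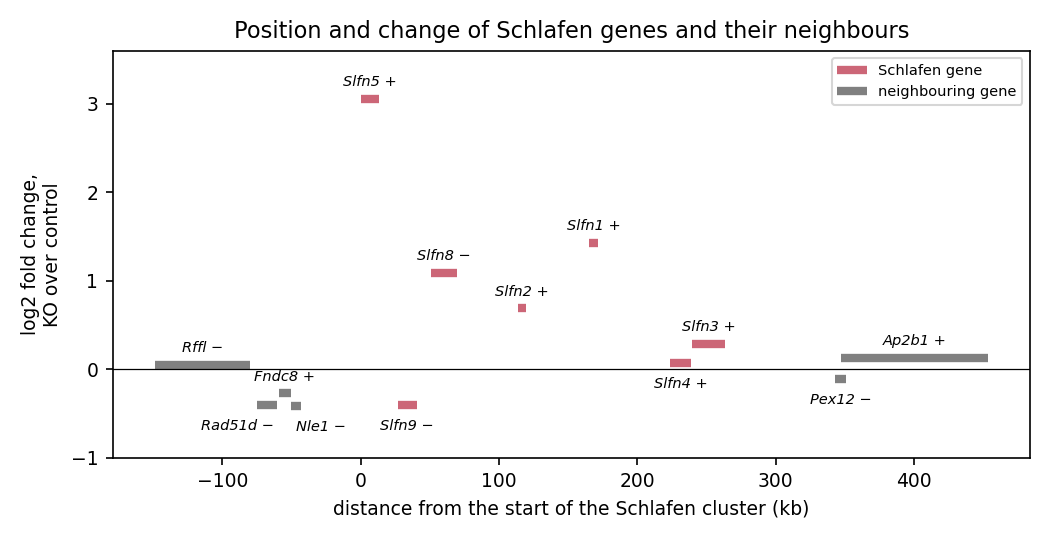
Log2 fold change, KO over control, of the Schlafen genes (red) and the tested neighbouring genes (grey), each drawn as a bar over its own extent along the chromosome in kb from the start of the cluster, with its strand beside the name. Within 263.8 kb the Schlafen genes range from -0.40 (Slfn9) to 3.06 (Slfn5), while the neighbours lie between -0.41 (Nle1) and 0.13 (Ap2b1).

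Since many Schlafen genes respond to interferon, the genes of that pathway were read from the same fit. Of 28 listed genes 25 were tested, and 19 were higher, 1 was lower and 5 did not pass the test. That was 80% called, against 46.1% over all tested genes, with a median log2 fold change of 1.40 against 0.013. Among the ligands, Ifnb1, Ifna2 and Ifna4 had at most 8 counts in any library and were not tested, and Ifng, the type II ligand, was at 0.285 ± 0.194 CPM in control and 0.519 ± 0.265 in KO (log2 fold change 0.66, adjusted p = 0.422, edgeR), and from 0.27 without control replicate 1 to 1.10 without KO replicate 2. All 4 receptor subunits were called higher, among them Ifnar1 (74.9 ± 4.3 to 185 ± 20.3 CPM, 1.30, adjusted p = 0.000183) and Ifngr1 (45.9 ± 7.75 to 165 ± 51.7 CPM, 1.84, adjusted p = 0.000616). The call of Ifnar2 (0.41, adjusted p = 0.0319) was lost without any 1 of the libraries other than KO replicate 1 (adjusted p from 0.0616 to 0.214) and with no filter on low counts (0.0802).

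Of 9 signalling genes 6 were higher, 1 was lower and 2 did not pass the test (77.8% called, against 46.1% over all tested genes). Irf1, an interferon-induced transcription factor that binds the response element printed above, rose from 34.5 ± 6.28 to 197 ± 37.4 CPM (2.51, adjusted p = 7.9e-05). Stat2, a transcription factor of type I interferon signalling, rose from 68.5 ± 19.5 to 168 ± 38 CPM (1.29, adjusted p = 0.00223), and Irf7, which amplifies type I interferon, from 6.5 ± 4.58 to 26.7 ± 7.49 CPM (2.01, adjusted p = 0.00567). The kinase gene Jak2 was the lower one, at 455 ± 50.3 and 335 ± 9.38 CPM (-0.44, adjusted p = 0.0168), a call lost without control replicate 1 (adjusted p = 0.0509), KO replicate 2 (0.0746) or KO replicate 3 (0.0614). The call of Irf9, which acts with Stat2 (0.48, adjusted p = 0.0322), was lost without control replicate 1 or 2 or KO replicate 2 or 3 (adjusted p from 0.0573 to 0.15) and with upper-quartile factors (0.46, adjusted p = 0.0525). All of these p-values come from the edgeR fit over all genes.

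Of 9 classical interferon targets 8 were higher and 1 did not pass the test (88.9% called, against 46.1% over all tested genes). Their median log2 fold change was 2.34. Oas2, which makes the activator of RNase L, rose from 0.391 ± 0.197 to 9.7 ± 2.97 CPM (4.69, adjusted p = 0.000224), and Ifit1 by 3.42 (adjusted p = 0.00579). The ubiquitin-like modifier gene Isg15 had 5.53, 4.6 and 17.2 CPM in control and 31.4, 28.4 and 81.5 CPM in KO replicates 1 to 3 (2.34, adjusted p = 0.00981). Rsad2, the antiviral gene that did not pass (2.12, adjusted p = 0.0931), passed with the replicate number as a block (2.96, adjusted p = 0.00374), without control replicate 3 (5.12, adjusted p = 0.000296) and with no filter on low counts (2.10, adjusted p = 0.0337). Of the inhibitors, Usp18 rose by 1.86 (adjusted p = 0.00167), whereas Socs1 had 105 ± 3.94 and 108 ± 3.56 CPM (0.045, adjusted p = 0.734, edgeR). Slfn5, at 3.06, lay within the range of the 9 targets, which ran from 1.40 (Ifih1) to 4.69 (Oas2). Slfn1 (1.43) lay below their median, near the low end of the range, and Slfn8 and Slfn2 (1.09 and 0.69) lay below every target.

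The quiescence list, chosen because Slfn1 and Slfn2 are tied to T cell rest, was mixed. Of its 15 genes 6 were higher, 2 were lower and 7 did not pass the test, 53.3% called against 46.1% over all genes, with a median log2 fold change of 0.24. The antiproliferative genes Btg2 (55 ± 1.07 to 331 ± 55.4 CPM, 2.59, adjusted p = 3.9e-05, edgeR) and Tob1 (14.6 ± 0.689 to 78.9 ± 19.4 CPM, 2.43, adjusted p = 8.3e-05) rose. Klf2, a factor of resting T cells, rose from 0.583 ± 0.2 to 3.74 ± 1.87 CPM (2.62, adjusted p = 0.00213), and Foxp1 by 0.99 (adjusted p = 0.0011). The 2 lower genes were Il7r, the interleukin-7 receptor of resting T cells (138 ± 48.7 to 61.5 ± 3.65 CPM, -1.17, adjusted p = 0.00307), and Lef1 (258 ± 19.9 to 148 ± 15 CPM, -0.80, adjusted p = 0.00129). The calls of Btg1 (0.71, adjusted p = 0.0296) and S1pr1 (0.73, adjusted p = 0.0294) were each lost without control replicate 1 or 2 or KO replicate 2 or 3, with adjusted p-values from 0.0712 to 0.117 for Btg1 and from 0.0809 to 0.11 for S1pr1.

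For transfer RNA cleavage, the process that Slfn2 restrains, 2 genes were listed. Rnh1, the ribonuclease inhibitor that binds angiogenin, rose from 130 ± 31.2 to 241 ± 35.3 CPM (0.89, adjusted p = 0.00512, edgeR). Ang, the gene of angiogenin, was near the limit of detection at 0.291 and 0.423 CPM (0.51, adjusted p = 0.559).

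The gene whose values were most like each called member was looked up among 9445 genes of sufficient level. Likeness was measured by Pearson's r of log2 CPM (prior count 2) over the 6 libraries. These correlations describe 6 points that share 2 groups, so any gene that differs between the groups scores high. For Slfn5 it was Nlrc5, the transactivator of major histocompatibility complex class I genes (r = 0.9989, 61.4 ± 7.53 to 151 ± 22.9 CPM), and 75 genes had an r above 0.99. It was Lrp6 for Slfn1 (r = 0.9993), Pmaip1 for Slfn8 (0.9964) and Limk1 for Slfn9 (0.9937), with 36, 18 and 5 genes above 0.99. For Slfn2 the closest was Bcl2a1b (r = 0.99 after rounding), whose counts are uncertain because 79.2% of its 50-base stretches are also found elsewhere among the genes (57.6% in Bcl2a1d), and no gene exceeded 0.99.

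The labelled cell type was read from marker lists. The summed level of 6 T cell genes was 1740 to 2193 CPM in control and 1526 to 1940 CPM in KO libraries. Among them, 2 genes were higher (Cd3e and Cd3g) and 2 lower (Cd4 and Cd5). Cd4 had 486 ± 48.6 CPM in control and 254 ± 36 CPM in KO (log2 fold change -0.94, adjusted p = 0.00132, edgeR). The summed level of 5 Th17 genes was 1315 to 1985 CPM in control and 486 to 1114 CPM in KO libraries, and 4 of them fell. Of 5 genes of CD8 T cells and natural killer cells, Klrb1c and Ncr1 had 0 counts in every library, and the summed level was 7.54 to 11.2 CPM in control and 6.04 to 10.5 CPM in KO libraries.

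Markers of antigen-presenting and myeloid cells were low, with a higher sum in KO that a few genes carried. The 10 myeloid genes, none of which was at 0 in every library, summed to 3.22 to 7.13 CPM in control and 20.5 to 34.3 CPM in KO libraries. Of the 5 that were tested, 3 were higher, including Cd68 (3.19 to 20 CPM) and Ly6g (0.492 to 4.54 CPM), while Itgam had at most 3 counts in any library. Fcgr3 was lower in every KO library (0.545 and 0.211 CPM) and did not pass the test (log2 fold change -1.33, adjusted p = 0.0536, edgeR). The 5 dendritic cell genes summed to 1.8 to 3.56 CPM in control and 8.69 to 10.6 CPM in KO libraries, with Xcr1 at 0.635 and 4.91 CPM and Zbtb46, which did not pass the test, at 1.82 and 3.75 CPM. Flt3, of the same list, had 0.352 and 0.296 CPM and was not tested. Slfn4, the myeloid-associated member, had 0.492 and 0.485 CPM in control and KO. Whether myeloid or dendritic cells were present in the cultures was not tested, nor was any part of them in the higher Slfn1, Slfn2, Slfn5 and Slfn8.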

How the data were processed

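RNA-seq of 6 libraries of cultured mouse Th17 cells (3 control, 3 KO) was analysed. Groups and replicate numbers came from the sample titles. The values the authors deposited are whole-number counts per gene symbol. STAR, featureCounts, DESeq2 and mm10 are named in the submitters' processing notes; versions, annotation and strand setting are not given in the sources used here. There were 0 columns without a sample.

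Counts were tested with edgeR 4.0.16 in R 4.3.3 (TMM factors, filterByExpr, quasi-likelihood test, Benjamini-Hochberg adjustment over 14268 genes, threshold 0.05), after a check on simulated data. The biological coefficient of variation was 0.212. CPM and RPKM use TMM-scaled library sizes, and RPKM uses GENCODE M21 exon lengths. With 3 libraries against 3, an exact permutation test cannot go below p = 0.1, so none was used. Alternatives were DESeq2 1.42.0, other scalings and filters, leaving out each library, replicates 1 and 2 alone, and summed near-copies.

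Libraries of equal number deviated together from their group means (correlations 0.27, 0.13 and 0.379, against -0.39 to 0.204 for unequal numbers), so a second fit took the number as a block. The text names all 7 members, the targeted gene, other Schlafen loci, genes of the listed interferon, quiescence, tRNA and neighbour lists, and the most similar gene of each called member. Members and lists were chosen with earlier results of these data known. Some genes of the lists are counted but not reported by name here.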

Additional observations from a re-analysis of the deposited data

How the results depend on the processing

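Slfn1 (log2 fold change 1.21 to 1.70), Slfn2 (0.48 to 0.82) and Slfn5 (2.76 to 3.35) stayed called under all alternatives run, as did Slfn8 (0.94 to 1.25) except when summed with Slfn9 (0.085). Slfn3 (0.21 to 0.37) and Slfn4 were called under none. Slfn9 lost its call when libraries were scaled by size alone (-0.31, adjusted p = 0.0968, edgeR), with no filter on low counts (-0.41, adjusted p = 0.0507), with replicates 1 and 2 alone (-0.40, adjusted p = 0.0725) and when summed with Slfn8, where the sign turned (0.085). Leaving out 1 library gave -0.52 to -0.29 for Slfn9, -0.33 to 0.34 for Slfn4, -0.054 to 0.067 for Socs1 and -0.048 to 1.54 for Ang. Leaving out control replicate 3 moved Ifit1 to 5.06, Isg15 to 3.17 and Irf7 to 2.72. The causes were not tested beyond what each setting leaves out.

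With the replicate block 7628 genes were called against 6574, of which 6555 were shared, and no call of a Schlafen gene changed (Slfn9 -0.41, adjusted p = 0.0192). Leaving out KO replicate 2 gave the fewest calls, 4460. Depth limits Slfn4, with 6 to 21 counts per library.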
